A study of Gossypium barbadense with 48 samples.

Results

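The step from 5 to 10 DPA in fibers of PimaS-7 was examined, with the 3 libraries at 10 DPA (days post anthesis, counted from flowering) set against the 3 libraries at 5 DPA. These 6 libraries were taken by their labels from the 48 of the series. PimaS-7 and 5917 are *Gossypium barbadense* materials, the parents of a population mapped for fiber strength, and RNA of each was sequenced at 8 stages with 3 libraries per stage. By the study's methods ovules were taken at 0 DPA and fibers at every later stage, so both groups compared here are fibers of 1 material that differ in age. The study's methods call the 3 replicates biological, but nothing in the labels says that they came from separate plants. The p-values therefore measure only the spread between these libraries.

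A cotton fiber is a single cell of the seed coat that stops dividing and then lengthens for weeks before its wall thickens. Lengthening needs turgor, which rests on solutes pumped into a large vacuole and on water channels, and it needs new membrane, new primary wall and a waxy outer cuticle. Microtubules under the plasma membrane guide the cellulose synthase complexes, and actin cables carry the vesicles that bring wall material. The order below follows these roles, from the cytoskeleton to the regulators.

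At 10 DPA tubulin, vacuolar proton pump and cuticle genes were among those higher than at 5 DPA, while histone, homeobox and cell division genes were among those lower. Over all 50303 genes tested with edgeR's quasi-likelihood test, 4786 were higher and 5734 lower. A gene counts as called, higher or lower, when its adjusted p does not exceed 0.05 and its log2 fold change is 1 or more in size. The calls were 9.51% higher, 11.4% lower and 20.9% in either direction, and 23944 genes had an unadjusted p of at most 0.05. With the TMM scaling of the fit large changes were more often increases, with 661 genes higher and 356 lower by at least 3 log2 units. With library totals alone 18.2% of all called genes were higher and 81.8% lower, and large changes were not counted apart. The groups did not overlap in CPM (counts scaled to the TMM-adjusted library size) for 53.6% of all genes tested, 25.4% higher at 10 DPA and 28.2% lower. In such bulk samples fewer cells of a type cannot be told apart from less RNA per cell.

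Names were held for 1550 of the 69337 genes, all of them in intervals on chromosomes D03, D08 and D11, and each is a best match in another species. Of these 1176 could be tested, and 116 were higher and 132 lower, or 21.1%, close to the share over all genes. Grouped by known role, 440 distinct genes were analysed in 28 lists and 312 had enough counts to be tested. Of these 312 members 45 were higher, 52 lower and 215 not called, with a median log2 fold change of 0.09. The called share was 31.1%, against 20.9% of all genes, in lists chosen with earlier results of these data known. A list therefore holds only the members of a family that lie in these intervals.

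The 10 DPA libraries held 33849658 to 43390702 counts and the 5 DPA libraries 31726792 to 40353218. Fewer genes had an FPKM (fragments scaled to gene length and library size) above 0.5 at 10 DPA, 41278 to 43331, than at 5 DPA, 44789 to 45706. The share of counts in the top 100 genes was 14.5 to 15.4% at 10 DPA and 7.24 to 10.6% at 5 DPA (exact permutation test, two-sided p = 0.1, the smallest that 3 against 3 libraries allow). The scaling factors of the 2 groups did not overlap, at 0.8249 to 0.9079 for 10 DPA and 1.0849 to 1.2336 for 5 DPA, so the zero point of the fold changes depends on the scaling. The median log2 fold change of all genes was -0.07 with TMM, -0.02 with DESeq2 size factors and -0.48 with library totals alone. The called genes were 45.5% higher and 54.5% lower with TMM, 50% each with DESeq2 size factors, and 18.2% higher and 81.8% lower with library totals. Across genes, Pearson's r of replicates was 0.9715 to 0.9726 at 10 DPA and 0.9429 to 0.9632 at 5 DPA. Between the groups r was lowest for 5 DPA replicate 3, and without that library 3953 genes were higher and 4119 lower.

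Genes that mark seed or green tissue were looked up as a check of the fibers. Of 7 analysed genes for seed and embryo proteins 4 had a read, with NFYB9, LEA6 and a copy matching At1g64065 at 0 in all 6 libraries, and their summed level was 9.12 to 12.5 CPM at 10 DPA and 9.85 to 13 CPM at 5 DPA. None of the 3 tested was called. All 13 green tissue markers had a read in both groups and summed to 51.9 to 65.1 CPM at 10 DPA and 36.1 to 46.4 CPM at 5 DPA, ranges that did not overlap, mostly from LIL3.2, a light-harvesting-like protein (log2 fold change 0.77, not called). Of the 8 tested, PSBT and CURT1A were lower at log2 fold changes of -1.32 and -1.31 (25% called, near the 20.9% of all genes). The adjusted p of PSBT was 0.0637 to 0.0653 without 5 DPA replicate 2 or 10 DPA replicate 2 or 3. The part of these cells in the results was not tested.

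Tubulin genes gave the largest change of the microtubule list. Tubulin forms the microtubules as pairs of an alpha and a beta chain. Tubulin beta-9 (Gbar_D08G020390; HAU v2.0, chromosome D08, positions 57515959 to 57518407, plus strand) had 728, 680 and 784 CPM at 10 DPA, against 90.7, 231 and 108 CPM at 5 DPA. All 3 libraries at 10 DPA lay above all 3 at 5 DPA, with replicate 2 the highest of the younger fibers (log2 fold change 2.35, SE 0.36, adjusted p = 0.00308). TUBB5 (Gbar_D11G033670), another beta chain, had 216, 250 and 221 CPM at 10 DPA, against 50.5, 37.7 and 23.1 CPM at 5 DPA (log2 fold change 2.63, SE 0.29, adjusted p = 0.00113). The alpha chain TUBA3 (Gbar_D11G025770) had 9.2, 9.79 and 11.2 CPM at 10 DPA, against 3.42, 2.4 and 2.15 CPM at 5 DPA (log2 fold change 1.92, SE 0.22, adjusted p = 0.00138). TUBB1 (Gbar_D08G020540) was the least even, with 11.7, 1.61 and 8.63 CPM at 10 DPA, against 0.73, 0.343 and 0.486 CPM at 5 DPA (log2 fold change 3.82, SE 0.70, adjusted p = 0.00574). Its second 10 DPA library lay nearer to the younger fibers than to the other two. Whether a read that fits both subgenome copies, or several tubulin genes, was counted once is not given in the sources used here, so the split among these genes is uncertain.

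Of the 22 tested members of the microtubule list 8 were higher and 4 lower (with library totals alone 5 and 6), against 9.51% and 11.4% of all genes. The list's median log2 fold change was 0.23 with TMM and -0.16 with library totals. Besides the tubulins, the higher members were CSI1, KIN14A, KIN14I and IQD31. KIN14A (Gbar_D11G022590), a kinesin motor, had 75.9, 92.7 and 86.4 CPM at 10 DPA, against 38.6, 32.5 and 39 CPM at 5 DPA (log2 fold change 1.21, SE 0.15, adjusted p = 0.0017). KIN14I dropped under the fold threshold without 5 DPA replicate 2 (log2 fold change 0.97) or replicate 3 (0.99), and IQD31, a calmodulin-binding protein, lost its call without 5 DPA replicate 1 (adjusted p = 0.0534) or 10 DPA replicate 2 (0.0559).

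The 4 lower members bind microtubules. WDL2 (Gbar_D11G032910), of the WAVE-DAMPENED family that shapes twisting growth in Arabidopsis, had 7.07, 4.52 and 7.7 CPM at 10 DPA, against 22.6, 18.9 and 24.9 CPM at 5 DPA (log2 fold change -1.78, SE 0.23, adjusted p = 0.00178). A second copy named WDL2, Gbar_D08G023850, had a log2 fold change of -0.04 and was not called, and the third, Gbar_D11G027420, one of -1.03 (adjusted p = 0.055). TANGLED (TAN), which marks the division plane in maize and Arabidopsis, was lower in both tested copies, by -2.09 and -1.26 on the log2 scale. MAP65-4, a bundling protein, had a log2 fold change of -1.10, or -0.86 and no call without 5 DPA replicate 3. SP1L2 (Gbar_D08G013370), of the SPIRAL1 family, had 18.7, 22.3 and 35.6 CPM at 10 DPA, against 12.6, 16.2 and 11.7 CPM at 5 DPA. Its groups did not overlap and its adjusted p was 0.0279, but its log2 fold change of 0.92 lay under the threshold and passed it without 5 DPA replicate 2 (1.09) or 10 DPA replicate 1 (1.10).

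**Figure D1:**
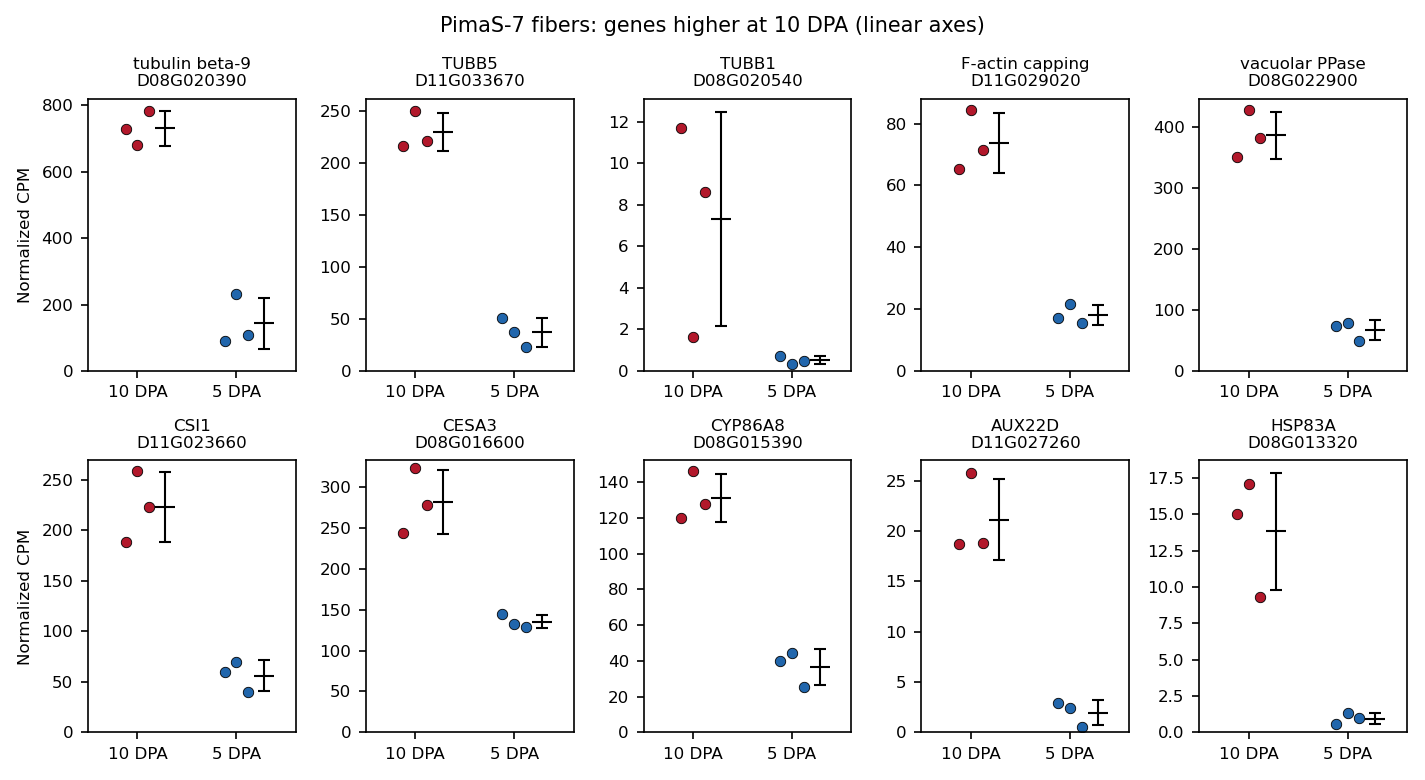
Normalized CPM of 10 genes in PimaS-7 fibers, 1 panel per gene with a linear axis from 0; points are the 3 libraries at 10 DPA (left) and 5 DPA (right), and bars the mean and SD. In every panel the 10 DPA libraries lie above the 5 DPA libraries, narrowly for TUBB1, whose lowest 10 DPA library was at 1.61 CPM against 0.73 CPM in the highest at 5 DPA.

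Actin cables and ROP GTPases were followed in a list of their own. ACT7 (Gbar_D11G024280), an actin of growing tissues, had 632, 760 and 702 CPM at 10 DPA, against 363, 373 and 214 CPM at 5 DPA. The groups stood apart, but the log2 fold change of 1.14 (SE 0.25, adjusted p = 0.0108) was 0.92 and under the threshold without 5 DPA replicate 3, the lowest library. The alpha subunit of F-actin-capping protein, At3g05520 (Gbar_D11G029020), which blocks the growing ends of filaments, had 65.3, 84.5 and 71.4 CPM at 10 DPA, against 17.1, 21.7 and 15.4 CPM at 5 DPA (log2 fold change 2.03, SE 0.19, adjusted p = 0.000709). Of 18 tested genes for actin and for ROP GTPases, the switches of polar growth, 3 were higher and 2 lower (27.8%, against 20.9% of all genes), and the median of 0.24 became -0.18 with library totals, with which 1 was higher and 3 lower. NET2D, an actin-binding protein, was also higher at 1.03, and ROPGAP2 (Gbar_D08G013490), which turns ROPs off, was lower at -1.12 (SE 0.16, adjusted p = 0.00257). The call of NET2D was lost without 5 DPA replicate 2 (0.96), 5 DPA replicate 3 (0.95) or 10 DPA replicate 2 (0.82). The ROP GTPase ARAC9 (Gbar_D08G016140) was called lower with groups that overlapped, 8.06, 2.44 and 1.89 CPM at 10 DPA against 47.6, 24.5 and 6.73 CPM at 5 DPA. Its adjusted p of 0.0306 was 0.056 to 0.105 without 5 DPA replicate 1 or 2 or 10 DPA replicate 2 or 3.

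Vacuolar proton pumps were higher in 3 of 5 tested genes and lower in none, against 9.51% and 11.4% of all genes. Of all genes between 30 and 100 CPM 16.3% were higher and 4.1% lower, and between 100 and 300 CPM 27% and 1.92%. The pump list's median log2 fold change was 1.34 (2 of 5 higher and 0.94 with library totals). These pumps acidify the vacuole and power the uptake of solutes that hold turgor. The vacuolar proton-pumping pyrophosphatase (Gbar_D08G022900; HAU v2.0, chromosome D08, positions 60995402 to 60999051, plus strand) had 350, 426 and 382 CPM at 10 DPA, against 74, 78.5 and 48.5 CPM at 5 DPA. The older fibers lay far above the younger ones, of which replicate 3 was the lowest (log2 fold change 2.52, SE 0.23, adjusted p = 0.000706). VATE (Gbar_D08G013450), subunit E of the V-type ATPase, had 190, 200 and 196 CPM at 10 DPA, against 61.6, 84.2 and 37.3 CPM at 5 DPA (log2 fold change 1.68, SE 0.28, adjusted p = 0.00417). Subunit H (VHA-H, Gbar_D08G024630) had a log2 fold change of 1.34 (SE 0.24, adjusted p = 0.00499). The copies of subunit F had log2 fold changes of 0.80 and 0.40 and were not called.

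Among 7 tested genes for water channels and ion transport, the plasma membrane aquaporin gene PIP1-2 (Gbar_D08G020630) was higher and the potassium transporter gene POT1 lower (28.6%, against 20.9% of all genes). PIP1-2 had the highest mean CPM of all named genes at 10 DPA. Its FPKM averaged 744 ± 22.1 at 10 DPA and 224 ± 61.6 at 5 DPA (SD, n = 3). Its 10 DPA libraries were closely alike, at 1625, 1670 and 1691 CPM, while those at 5 DPA spread over 394, 516 and 258 CPM. POT1 (Gbar_D08G022430) had 0.559, 0.538 and 0.784 CPM at 10 DPA, against 2.72, 1.9 and 2.92 CPM at 5 DPA (log2 fold change -1.99, SE 0.34, adjusted p = 0.00441). NHX2, a vacuolar exchanger of sodium or potassium for protons, had copies at 0.50 and -0.17 on the log2 scale, neither called.

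Of 9 tested genes for cellulose synthases and their partners 2 were higher, CSI1 and CESA3, and none lower (22.2%, near the 20.9% of all genes). CSI1 (Gbar_D11G023660), which ties the cellulose synthase complex to microtubules, had 189, 258 and 223 CPM at 10 DPA, against 59.4, 69.6 and 39.9 CPM at 5 DPA (log2 fold change 1.99, SE 0.24, adjusted p = 0.00154). CESA3 (Gbar_D08G016600), a catalytic subunit of the primary wall complex, had 244, 322 and 278 CPM at 10 DPA, against 144, 132 and 129 CPM at 5 DPA. Its log2 fold change of 1.06 (SE 0.17, adjusted p = 0.00358) was 0.95 without 10 DPA replicate 2, which ended the call. CESA6, another catalytic subunit, was level at 0.10 on the log2 scale (adjusted p = 0.61), and the list's median was 0.24 with TMM and -0.16 with library totals, with which 1 gene was higher and 1 lower. SUS2, a sucrose synthase that can feed the complex, had a log2 fold change of -0.62 and was not called.

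Of the other wall genes few could be tested. Expansins loosen the wall as cells extend, and of 12 analysed expansins, xyloglucan enzymes and endoglucanases 5 were tested. EXLB1 (Gbar_D08G018530) had 6.02, 4.41 and 5.99 CPM at 10 DPA, against 0.101, 0.618 and 0.0768 CPM at 5 DPA, and EXPA17 (Gbar_D08G014270) 1.68, 1.58 and 1.51 CPM at 10 DPA, against 4.68, 3.66 and 3.66 CPM at 5 DPA (log2 fold change -1.33, SE 0.23, adjusted p = 0.00464). A second copy of EXLB1 was at 0 in all 6 libraries. Of 12 pectin genes 1 was higher and 2 lower (25%, near the 20.9% of all genes). The higher one, a probable polygalacturonase (Gbar_D08G012870), an enzyme that cuts pectin, had 0.966, 243 and 83.7 CPM at 10 DPA, against 5.89, 8.14 and 2.07 CPM at 5 DPA. These groups overlapped, the adjusted p was 0.0488, and it was 0.0813 to 0.155 without any of 5 of the 6 libraries, 10 DPA replicate 1 being the exception. The rhamnogalacturonate lyase gene rhiE (Gbar_D11G022420) was lower (log2 fold change -1.26, SE 0.22, adjusted p = 0.00504), and a further polygalacturonase, Gbar_D08G014190, had -1.04, with no call without 5 DPA replicate 2 (-0.88), 10 DPA replicate 2 (-0.91) or 10 DPA replicate 3 (-0.96). The synthetic enzymes GAUT1 and GAUT6, which build pectin, had 0.56 and 1.00 and were not called.

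In the list of cuticle, very long chain fatty acid and lipid transfer genes 5 of 12 were higher and 1 lower, against 9.51% and 11.4% of all genes, or 2 and 1 with library totals. CYP86A8 (Gbar_D08G015390), a fatty acid hydroxylase of cutin synthesis, had 120, 146 and 128 CPM at 10 DPA, against 40.2, 44.4 and 25.5 CPM at 5 DPA (log2 fold change 1.84, SE 0.23, adjusted p = 0.00164). HOTHEAD (HTH, Gbar_D08G020060), which acts on the next step of cutin monomers, had 204, 283 and 230 CPM at 10 DPA, against 112, 121 and 67.3 CPM at 5 DPA (log2 fold change 1.26, SE 0.25, adjusted p = 0.00792). GPAT3, an acyltransferase of glycerolipids, was higher in both tested copies. Gbar_D08G022790 had 157, 83 and 104 counts at 10 DPA and 0 in every library at 5 DPA. Taking 3 counts over the 5 DPA group as the limit that a count of 0 allows, it was at least 138-fold higher. The other copy, Gbar_D08G013980, had 3.2, 3.05 and 2.38 CPM at 10 DPA, against 1.31, 1.19 and 1.28 CPM at 5 DPA. LTL1 (Gbar_D08G024040), a GDSL lipase, went the other way, with 9.66, 11.8 and 9.3 CPM at 10 DPA, against 37.9, 48.8 and 42.6 CPM at 5 DPA (log2 fold change -2.07, SE 0.17, adjusted p = 0.000516). PAS2 and CER26L, of very long chain fatty acid synthesis, had 0.52 and 0.69 and were not called. The fifth higher gene, accD, of fatty acid synthesis in plastids, had 1.02, and its call was lost without 5 DPA replicate 3 (0.89), 10 DPA replicate 2 (0.82) or 10 DPA replicate 3 (0.99).

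Of 36 tested genes of vesicle traffic 5 were higher, 1 lower and 30 not called. The called share of 16.7% lay under the 20.9% of all genes, and the list's median was 0.63, or 0.22 with library totals, with which 0 were higher and 2 lower. VPS53 (Gbar_D08G018280), a tether of vesicles returning to the Golgi, had 43.8, 50.5 and 46.5 CPM at 10 DPA, against 25, 16.4 and 18.9 CPM at 5 DPA (log2 fold change 1.23, SE 0.18, adjusted p = 0.00279). COG6 (Gbar_D08G017170), of a Golgi tethering complex, had 50.7, 60 and 52.3 CPM at 10 DPA, against 28, 24.8 and 24.3 CPM at 5 DPA. COPZ2, a coat protein of Golgi vesicles, had a log2 fold change of 1.30, and At1g31730, the epsilon subunit of the AP-4 adaptor, 1.68, with an adjusted p of 0.026 that was 0.0603, 0.0702 and 0.0605 without each 10 DPA library in turn. TRAPPC6B had 0.99, 0.83 and 0.91 without 5 DPA replicates 1 and 3 and 10 DPA replicate 2, under the threshold. ARF1 (Gbar_D11G023030), a GTPase of coat assembly, was lower (log2 fold change -1.75, SE 0.27, adjusted p = 0.00295).

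**Figure D2:**
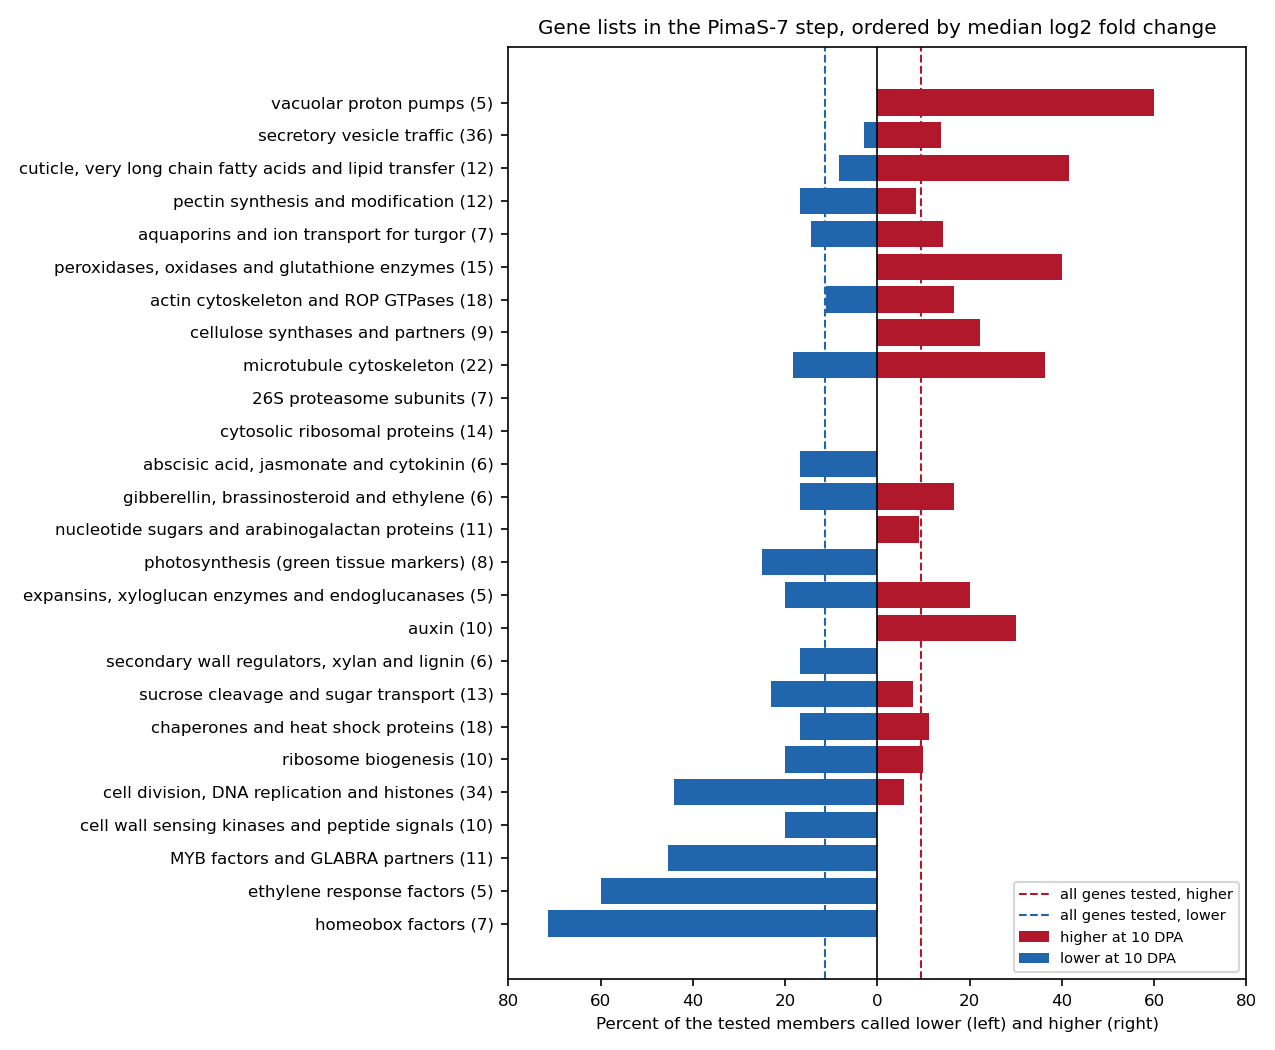
Percent of the tested members of each gene list called lower (left bars) and higher (right bars) at 10 DPA against 5 DPA, for lists with at least 5 tested members, whose number is in brackets; dashed lines give the shares over all genes tested, 11.4% lower and 9.51% higher. Vacuolar proton pumps have 3 of 5 genes higher and homeobox factors 5 of 7 lower, with none the other way; with library totals these are 2 of 5 and 6 of 7, and the microtubule list turns to 5 higher and 6 lower.

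Cell division, DNA replication and histone genes were lower in 15 of 34 cases and higher in 2, against 11.4% and 9.51% of all genes. Their median log2 fold change was -0.72 (17 lower, 1 higher and -1.15 with library totals). Their summed level was 180 to 198 CPM at 10 DPA, against 386 to 428 CPM at 5 DPA. NEK2 (Gbar_D11G027850; HAU v2.0, chromosome D11, positions 56222956 to 56228933, plus strand), a kinase of mitosis in animals, had 7.27, 7.53 and 6.16 CPM at 10 DPA, against 32.9, 29.8 and 37 CPM at 5 DPA (log2 fold change -2.25, SE 0.16, adjusted p = 0.000371). The older fibers lay close together and far under the younger ones. KRP3 (Gbar_D08G021770), which holds back the kinases of the cell cycle, had 0.864, 0.86 and 0.639 CPM at 10 DPA, against 3.62, 3.2 and 4.02 CPM at 5 DPA (log2 fold change -2.19, SE 0.27, adjusted p = 0.00165).

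GIF1, a coactivator that promotes cell proliferation in leaves of Arabidopsis, was lower in both copies. Gbar_D11G027490 had 17.4, 26.4 and 7.47 CPM at 10 DPA, against 63.7, 74.7 and 67.4 CPM at 5 DPA (log2 fold change -2.01, SE 0.40, adjusted p = 0.00737), and Gbar_D08G023940 a log2 fold change of -2.55. GRF10, of the factors that GIF proteins bind, had -1.68, with no call without 5 DPA replicate 3 (adjusted p = 0.0529) or 10 DPA replicate 2 (0.0656).

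Of the histone genes H2AX (HIS2A, Gbar_D08G020750) had 9.02, 9.21 and 9.32 CPM at 10 DPA, against 28.5, 37.8 and 21.3 CPM at 5 DPA (log2 fold change -1.67, SE 0.22, adjusted p = 0.00183). The H2A variant gene H2AV and the H2A.5 gene At5g27670 had -1.64 and -1.57, the linker histone H1.2 gene At2g30620 -2.30, and HIS2A (Gbar_D11G028260) -1.09 (-0.94 without 5 DPA replicate 2, under the threshold). A further gene for H2AX, At1g54690, had 0.83 and was not called, so the histones did not all fall. The DNA replication genes RFC3, POLD4 and RNR1 had -0.75, -0.41 and -0.32 and were not called either.

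The 2 higher members of the list were a cyclin and a licensing factor. CYCU2-2 (Gbar_D08G015880), of the U-type cyclins, had 105, 51 and 57 counts at 10 DPA and 0 in every library at 5 DPA, and was at least 85.6-fold higher by the same limit. MCM7 (Gbar_D08G013890), of the replicative helicase, had 1.93, 1.79 and 1.36 CPM at 10 DPA, against 0.277, 0.0915 and 0.64 CPM at 5 DPA (log2 fold change 2.33, SE 0.63, adjusted p = 0.0239). Without 5 DPA replicate 1, 10 DPA replicate 1 or 10 DPA replicate 2 its adjusted p was 0.0796, 0.0664 or 0.066.

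Cytosolic ribosomal protein genes stayed under the thresholds in all 14 cases tested, with log2 fold changes of -0.997 to 0.62 and a median of 0.10 (-0.30 with library totals, with 1 lower). All 7 tested proteasome subunits did too, with a median of 0.13 (-0.28 with library totals, with 1 lower). Of all genes tested 20.9% were called. Of 10 tested ribosome biogenesis genes 1 was higher and 2 lower (30%, against 20.9% of all genes). Imp4 (Gbar_D11G027990), which processes ribosomal RNA, was higher at 2.12 (SE 0.29, adjusted p = 0.00209), and RRP4 and NOP5-2 were lower at -1.30 and -1.10. Among 18 tested chaperones 2 were higher and 3 lower (27.8%, against 20.9% of all genes). HSP83A (Gbar_D08G013320), of the HSP90 family, had 15, 17.1 and 9.32 CPM at 10 DPA, against 0.554, 1.33 and 0.972 CPM at 5 DPA (log2 fold change 3.85, SE 0.37, adjusted p = 0.000804). BIP5 (Gbar_D08G012570), a chaperone of secreted proteins in the endoplasmic reticulum, had 47, 55.1 and 46.4 CPM at 10 DPA, against 15.6, 11.8 and 25.4 CPM at 5 DPA (log2 fold change 1.49, SE 0.27, adjusted p = 0.00545). SGT1B and CPN60B2 were lower at -1.46 and -1.27, and the heat shock factor HSFB2B (-1.57) was called with groups that overlapped and lost its call without any library but 5 DPA replicate 2 (adjusted p 0.0611 to 0.166).

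Homeobox factors, regulators of cell fate and organ form, were lower in 5 of 7 tested genes and higher in none. The shares of all genes were 11.4% lower and 9.51% higher. The list's median log2 fold change was -1.74 (6 lower and -2.13 with library totals). HAT2 (Gbar_D08G018890; HAU v2.0, chromosome D08, positions 54723124 to 54724959, minus strand), an auxin-responsive factor in Arabidopsis, had 8.92, 4.34 and 6.54 CPM at 10 DPA, against 26.4, 30.6 and 34 CPM at 5 DPA (log2 fold change -2.19, SE 0.26, adjusted p = 0.00148). ATHB-16 (Gbar_D11G022840), a repressor of leaf cell expansion in Arabidopsis, had 18.8, 9.43 and 13.8 CPM at 10 DPA, against 41.7, 48.9 and 49.9 CPM at 5 DPA (log2 fold change -1.74, SE 0.25, adjusted p = 0.00241). ZHD1 (Gbar_D11G022680) had 4.42, 2.98 and 3.98 CPM at 10 DPA, against 13.3, 14.4 and 15.3 CPM at 5 DPA (log2 fold change -1.91, SE 0.19, adjusted p = 0.000923). In all 3 genes the groups were well separated. REV, a factor of organ polarity, had -1.06, or -0.92 without 5 DPA replicate 1 and -0.97 without 10 DPA replicate 2. BEL1 was at the threshold, with an adjusted p of 0.0499 that was 0.062 to 0.167 without any library but 10 DPA replicate 2. KNAT7, a factor of secondary walls, was level at 0.16.

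Of 11 tested MYB factors and GLABRA partners 5 were lower and none higher, against 11.4% and 9.51% of all genes. The list's median was -0.88 (6 lower and -1.28 with library totals). Of all genes between 1 and 3 CPM 20.2% were lower. In Arabidopsis GL3 works with MYB proteins to start leaf hairs. GL3 (Gbar_D08G020580) had 14, 11.7 and 15.8 CPM at 10 DPA, against 34.6, 25 and 33.6 CPM at 5 DPA (log2 fold change -1.17, SE 0.19, adjusted p = 0.00339). MYB113 (Gbar_D11G026500), of the anthocyanin MYBs, had 0.585, 0.753 and 0.784 CPM at 10 DPA, against 2.37, 4.12 and 4.25 CPM at 5 DPA (log2 fold change -2.34, SE 0.34, adjusted p = 0.00246). MYB105 (Gbar_D11G025170) had 1.86, 1.61 and 3.14 CPM at 10 DPA, against 9.16, 8.03 and 7.55 CPM at 5 DPA. The calls of Gbar_D08G015260, described as MYB41 (-2.57), and GEM (-1.44) were lost without any of 5 libraries, with adjusted p of 0.069 to 0.103 and 0.063 to 0.0929. The exception was 10 DPA replicate 2 for the MYB41 match and 10 DPA replicate 1 for GEM. Of the copies named MYB2, 1 was at 0 in all 6 libraries and the other averaged 0.0254 CPM at 10 DPA and 0 at 5 DPA.

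Ethylene response factors were lower in 3 of 5 tested genes, also with library totals, against 11.4% of all genes. CRF2 (Gbar_D08G013010), a cytokinin response factor, had 1.5, 1.22 and 0.726 CPM at 10 DPA, against 5.01, 5.01 and 6.12 CPM at 5 DPA (log2 fold change -2.22, SE 0.30, adjusted p = 0.00211). ERF5 (Gbar_D08G018820) had 0 reads in every library at 10 DPA and 19, 12 and 19 counts at 5 DPA, at least 13.8-fold lower by the limit of 3 counts over the group. ERF060 had an adjusted p of 0.0457 that was 0.0791 to 0.15 without any library but 5 DPA replicate 2.

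**Figure D3:**
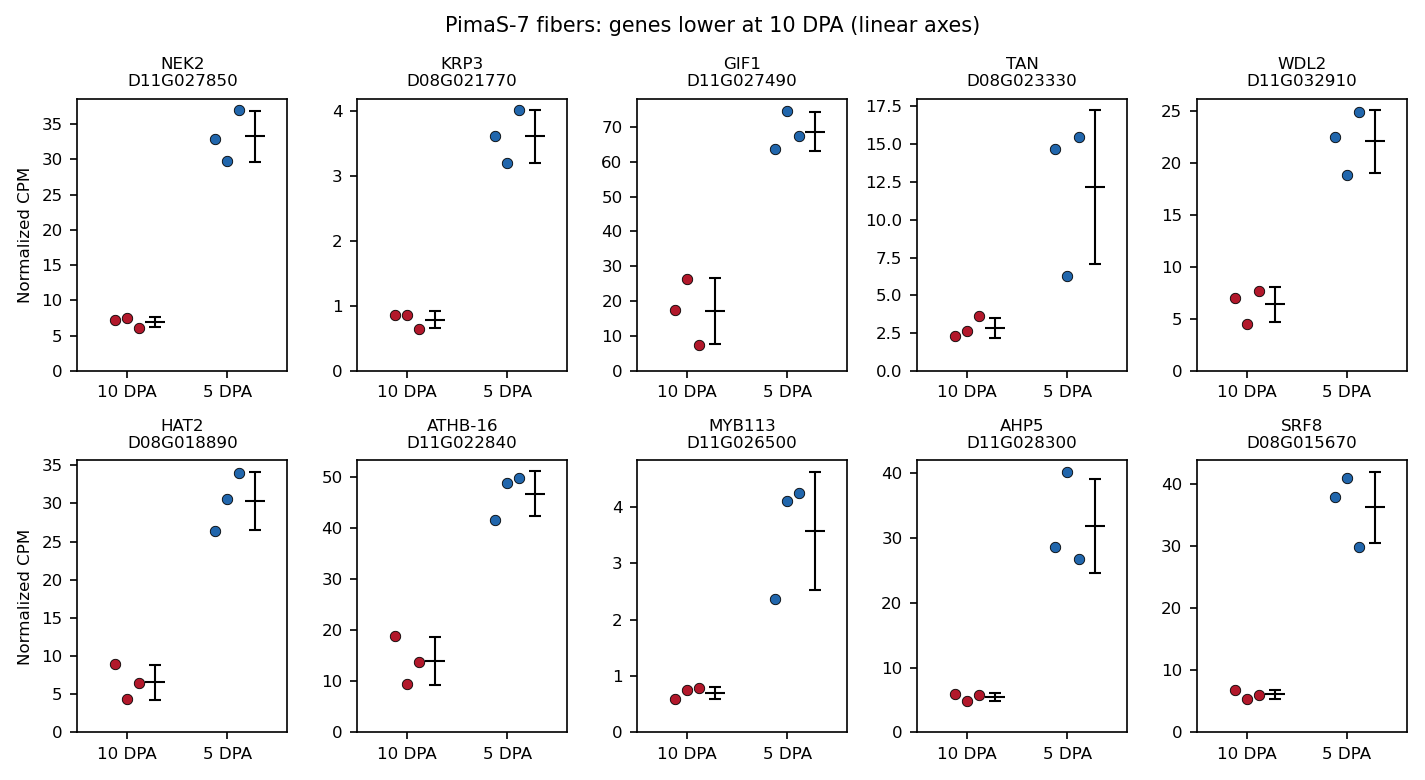
Normalized CPM of 10 genes in PimaS-7 fibers, 1 panel per gene with a linear axis from 0; points are the 3 libraries at 10 DPA (left) and 5 DPA (right), and bars the mean and SD. In every panel the 10 DPA libraries lie under the 5 DPA libraries, and the 10 DPA spread is widest for GIF1 (Gbar_D11G027490), at 7.47 to 26.4 CPM.

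Hormone genes were called in small numbers and in both directions. Of 10 auxin genes 3 were higher and none lower (30%, against 20.9% of all genes), while the median was -0.13. AUX22D (Gbar_D11G027260), an early auxin-induced repressor, had 18.7, 25.7 and 18.8 CPM at 10 DPA, against 2.89, 2.4 and 0.537 CPM at 5 DPA (log2 fold change 3.43, SE 0.52, adjusted p = 0.00288). SAUR32 (Gbar_D08G014400), of the small auxin-up RNAs, had 3.76, 4.95 and 4.42 CPM at 10 DPA, against 0.554, 0.892 and 0.281 CPM at 5 DPA (log2 fold change 2.91, SE 0.41, adjusted p = 0.00237). GH3.6, which binds auxin to amino acids, had 1.31, with adjusted p of 0.0536 and 0.0501 without 5 DPA replicate 1 and 10 DPA replicate 1. The auxin receptor TIR1 and the repressor IAA9 had -0.56 and -0.71 and were not called. The lowest log2 fold change in the auxin list was -1.67, also not called. With library totals 4 auxin genes were lower and 2 higher.

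AHP5 (Gbar_D11G028300), which relays cytokinin signals to the nucleus, had 5.97, 4.8 and 5.72 CPM at 10 DPA, against 28.6, 40.2 and 26.8 CPM at 5 DPA (log2 fold change -2.53, SE 0.20, adjusted p = 0.000516). It was the 1 gene called of 6 in the list of abscisic acid, jasmonate and cytokinin (16.7%, against 20.9% of all genes). MYC2, the jasmonate regulator, had -0.29. ASK8 (Gbar_D08G015160), a kinase of the family that restrains brassinosteroid signals, had 6.91, 4.8 and 6.91 CPM at 10 DPA, against 1.69, 1.6 and 1.38 CPM at 5 DPA (log2 fold change 1.996, SE 0.23, adjusted p = 0.0014). The receptor BRI1 had -0.44 and the gibberellin receptor GID1C 0.28, and neither was called. ACS1, of ethylene synthesis, had -1.39, with adjusted p of 0.0534 and 0.0561 without 5 DPA replicate 2 and 10 DPA replicate 3.

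Redox genes were higher in 6 of 15 cases and lower in none, against 9.51% and 11.4% of all genes. With library totals 3 were higher and 1 lower, and the median of 0.32 became -0.08. RBOHA (Gbar_D08G013170), an oxidase that makes superoxide outside the cell, had 1.22, 2.29 and 1.42 CPM at 10 DPA, against 0.126, 0.206 and 0.153 CPM at 5 DPA (log2 fold change 3.31, SE 0.47, adjusted p = 0.00241). GPX4, a glutathione peroxidase, and GSTF8, a glutathione transferase, were higher at 1.30 and 1.45. GSTU17 (Gbar_D11G024050), another transferase, had 1206, 1682 and 1455 CPM at 10 DPA, against 709, 970 and 448 CPM at 5 DPA, and its log2 fold change of 1.03 was called with all 6 libraries (adjusted p = 0.0326) or without 5 DPA replicate 2. Without each other library in turn its adjusted p was 0.0385 to 0.104, and at 0.0385 its log2 fold change was 0.78. The peroxidase gene PER57 (Gbar_D08G024370) had 26, 12 and 17 counts at 10 DPA and 0 in every library at 5 DPA, at least 22.1-fold higher by the limit of 3 counts over the group. The call of PER17 (1.74) was lost without any library but 5 DPA replicate 2 and 10 DPA replicate 2 (adjusted p 0.106 to 0.118). Ascorbate oxidase (AAO), which uses ascorbate in the wall, had -0.97 and was not called.

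Of 13 genes for sucrose cleavage and sugar transport 1 was higher and 3 lower (30.8%, against 20.9% of all genes), with no invertase or sucrose synthase among them. C/VIF2 (Gbar_D11G024460), an inhibitor of invertases, had 1.35, 0.825 and 1.25 CPM at 10 DPA, against 4.18, 4.28 and 5.01 CPM at 5 DPA (log2 fold change -1.97, SE 0.27, adjusted p = 0.00212). The invertase genes CINV2 and INVH had 0.22 and 0.24. Sugar transporter genes of the ERD6 family went both ways, with Gbar_D11G028440 at -1.46 and the scarcely expressed Gbar_D11G028360 at 3.39 (adjusted p = 0.0159, or 0.0594 and 0.0533 without 5 DPA replicate 1 and 10 DPA replicate 2). TPS5, of trehalose phosphate synthesis, had -1.04, or -0.90 without 5 DPA replicate 2 and -0.91 without 10 DPA replicate 2.

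Among kinases that sense the wall and peptide signals 2 of 10 were lower and none higher (20%, near the 20.9% of all genes). SRF8 (Gbar_D08G015670), a receptor-like kinase of the STRUBBELIG family, had 6.89, 5.41 and 6.1 CPM at 10 DPA, against 37.9, 41 and 29.9 CPM at 5 DPA (log2 fold change -2.56, SE 0.18, adjusted p = 0.000371). The peptide gene EPFL1 had -1.44, with adjusted p of 0.0616 to 0.111 without 5 DPA replicate 2 or 3 or 10 DPA replicate 1 or 3. FEI1, a kinase of wall synthesis, was level at 0.12, and the peptide gene RALFL33 had 0.73, neither called. Of 6 tested genes for secondary walls, xylan and lignin 1 was called (16.7%, against 20.9% of all genes). This was 4CLL6, lower at -1.34, with adjusted p of 0.0866 to 0.126 without 5 DPA replicate 1 or 3 or 10 DPA replicate 2 or 3. Nucleotide sugar and arabinogalactan genes held 1 call in 11 (9.09%, against 20.9% of all genes), AGP14 (1.07, adjusted p = 0.0291). Its call was kept without 5 DPA replicate 2 alone, and it was 0.80 with adjusted p = 0.046 without 5 DPA replicate 3. Without the other libraries its adjusted p was 0.0685 to 0.0944. No germin-like gene could be tested, and 4 were analysed.

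Named genes outside the lists also changed. METE (Gbar_D08G024250), a methionine synthase, had 666, 807 and 741 CPM at 10 DPA, against 128, 315 and 159 CPM at 5 DPA (log2 fold change 1.88, SE 0.34, adjusted p = 0.00543). RANBP1C (Gbar_D08G022420), of nuclear transport, had 295, 364 and 336 CPM at 10 DPA, against 94.2, 119 and 69.3 CPM at 5 DPA (log2 fold change 1.82, SE 0.23, adjusted p = 0.00173). PI4KG2 (Gbar_D08G012640), named for phosphatidylinositol kinases, had 71.3, 59.1 and 77.9 CPM at 10 DPA, against 17.7, 15.5 and 7.55 CPM at 5 DPA. PNS1, NAC079, SAPK3, RHA1B and RIN4 were higher by 3.99, 2.34, 2.11, 2.04 and 2.01 on the log2 scale.

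In the other direction, LKHA4 (Gbar_D08G019070), a leukotriene hydrolase homolog, had 5.97, 3.48 and 7.06 CPM at 10 DPA, against 33.1, 27.3 and 41.7 CPM at 5 DPA (log2 fold change -2.62, SE 0.29, adjusted p = 0.00114). SCL6 (Gbar_D08G019400), of the GRAS factors, had 16.3, 10.2 and 15.8 CPM at 10 DPA, against 52.9, 45.8 and 71.2 CPM at 5 DPA. PLP9, purA and At3g50808 were lower by -2.20, -2.15 and -2.92 on the log2 scale. Annexin ANN2 and the transporter gene DTX21, both among the 10 named genes of highest CPM at 10 DPA, had 0.54 and 0.63 and were not called.

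Some genes were read at 1 age only. With at least 10 counts in each library of the other group, 94 genes had 0 reads in all 3 libraries at 5 DPA and 51 in all 3 at 10 DPA. The named ones at 0 in the younger fibers were GPAT3, CYCU2-2, PER57 and ZFP10, a zinc finger factor with 60, 50 and 29 counts at 10 DPA (at least 55.9-fold higher). At 0 in the older fibers were ERF5, YRR1 (at least 40.6-fold lower) and CHLN, a nicotianamine synthase (at least 13.3-fold lower). Of genes without a name, Gbar_A06G018120 had 58.4, 80.7 and 75.4 CPM at 10 DPA, against 0.151, 0.297 and 0.0768 CPM at 5 DPA, and Gbar_D01G020370 94.3, 81.1 and 114 CPM at 10 DPA, against 0.604, 0.503 and 0 CPM at 5 DPA. Gbar_D06G002580 had 7.5, 7.92 and 8.66 CPM at 10 DPA, against 89.7, 72 and 123 CPM at 5 DPA, and Gbar_D07G011540 6.61, 6.06 and 7.35 CPM at 10 DPA, against 56.1, 53.5 and 42.3 CPM at 5 DPA.

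The direction of change went with abundance. Of 259 genes with a mean above 300 CPM over the 6 libraries 47.9% were higher and 3.09% lower, with a median log2 fold change of 0.98, or 25.5%, 4.63% and 0.59 with library totals. Of 8289 genes between 1 and 3 CPM 8.86% were higher and 20.2% lower, with a median of -0.40, or 5.75%, 35.5% and -0.81 with library totals. Between 10 and 30 CPM the shares were 8.01% and 7.07%, between 30 and 100 CPM 16.3% and 4.1%, and between 100 and 300 CPM 27% and 1.92%. The shares over all genes given beside the lists are not matched for abundance. The A and D subgenomes were alike, with 9.83% higher and 10.8% lower of 22131 A genes and 10% and 11% of 23002 D genes. Genes that the authors' assembly added to the annotation had 5.48% higher and 16.4% lower of 4833.

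The stages around the step place it for single genes, in the deposited FPKM. Since these steps share the 5 or the 10 DPA libraries, their values are only set side by side. Of all genes tested 16.1% were called from 0 to 5 DPA (9.63% higher, 6.51% lower) and 12.1% from 10 to 15 DPA (5.45% higher, 6.68% lower). Tubulin beta-9 averaged 20.9 FPKM in 0 DPA ovules, 76.9 at 5 DPA, 308 at 10 DPA and 909 at its highest stage, 20 DPA, while TUBB5 was highest at 25 DPA with 777 ± 174 FPKM (SD, n = 3). TUBB1 had 0.293 FPKM at 5 DPA and 3.29 FPKM at 10 DPA, and reached 1258 ± 422 FPKM at 25 DPA. WDL2 (Gbar_D11G032910), the microtubule gene that was lower at 10 DPA, was at 13.4 FPKM at 5 DPA and 2.97 FPKM at 10 DPA and at 201 ± 34.9 FPKM at 25 DPA. CYP86A8 was highest at 10 DPA itself, with 39.5 ± 2.5 FPKM, and at 0.271 FPKM at 25 DPA. The pyrophosphatase was highest at 20 DPA, with 275 ± 24.1 FPKM. NEK2 was highest in ovules, at 31.9 FPKM, and lower at each stage from 5 DPA (12.4 FPKM) and 10 DPA (2.07 FPKM) to 25 DPA (0.00457 FPKM).

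**Figure D4:**
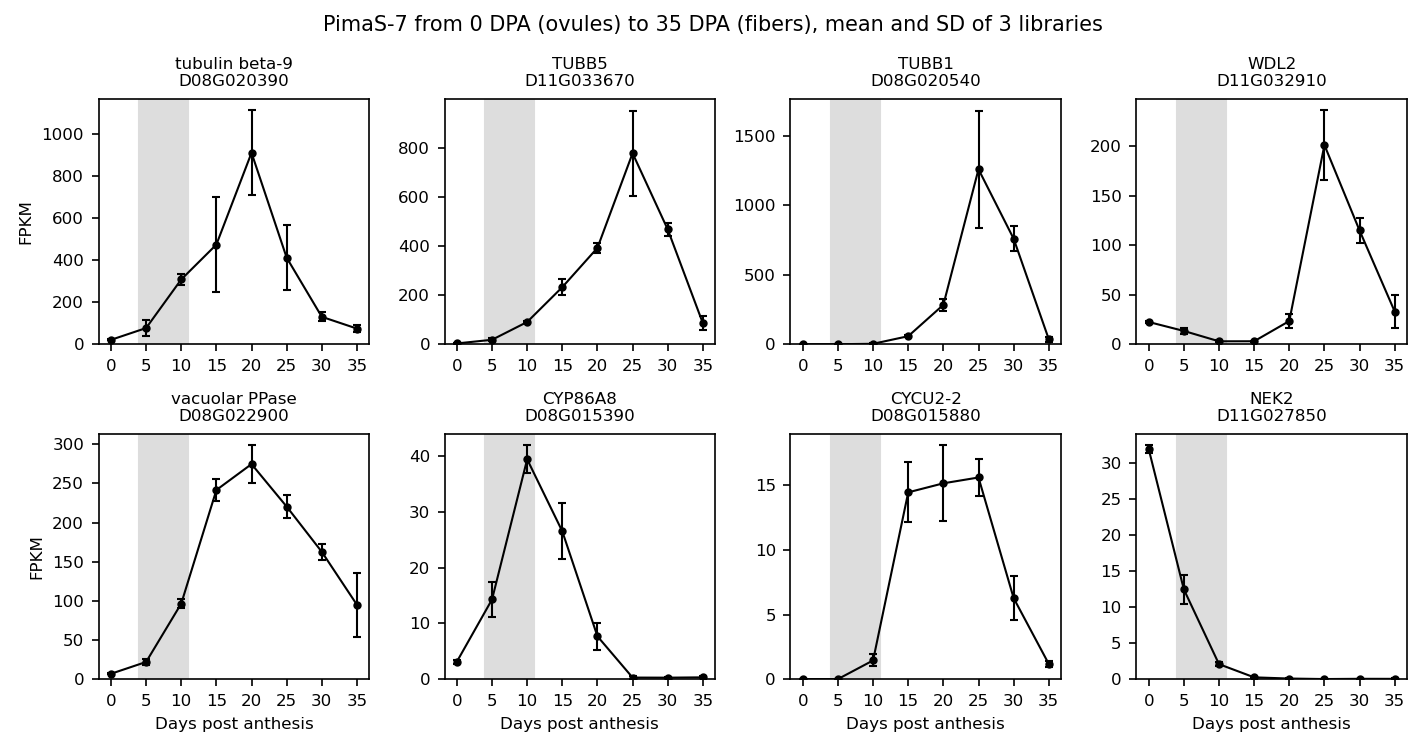
Mean FPKM and SD of 3 libraries at 8 stages of PimaS-7, from 0 DPA ovules to 35 DPA fibers, for 8 genes, with linear axes and the 5 to 10 DPA step shaded. Tubulin beta-9 and the vacuolar pyrophosphatase (PPase) are highest at 20 DPA, TUBB5, TUBB1 and WDL2 at 25 DPA, CYP86A8 at 10 DPA and NEK2 at 0 DPA.

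The same step was tested in 5917, where 4233 genes were higher and 7091 lower of 48334 tested (8.76% and 14.7%, or 23.4% in either direction). Of genes tested in both materials, 2956 were higher in both, 63.7% of those higher in PimaS-7 and 71.6% of those higher in 5917, and 3701 were lower in both, 68.5% and 53.2%. Only 6 genes higher in PimaS-7 were lower in 5917, and 8 the reverse. The difference between the steps was tested directly as an interaction, and 44 of 51840 genes passed (0.0849%), 30 with a more positive log2 fold change in PimaS-7 (0.0579%) and 14 with a more negative one (0.027%). At the gene level 4588 had an unadjusted p of at most 0.05, DESeq2 called 318 and 135, and the count moved with single libraries. It was 18, 24, 79 and 29 without 5917 5 DPA replicate 1, 5 DPA replicate 3, 10 DPA replicate 1 and 10 DPA replicate 2, and 21 without PimaS-7 10 DPA replicate 1. None of the 44 had a name.

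Of all genes tested in both materials, 98.7% of those lower in PimaS-7 and 97.5% of those higher had the same sign in 5917. The list members were near these shares. Of the list members tested in both materials, all 51 that were lower in PimaS-7 had the same sign in 5917 and 38 were called lower there. Of 44 that were higher 43 had the same sign and 27 were called higher, the exception being PER57 (at 0 in every 5 DPA library of PimaS-7, and a log2 fold change of -0.68 in 5917, not called there, interaction adjusted p = 0.495). Tubulin beta-9 had 2.35 in PimaS-7 and 0.69 in 5917, TUBB5 2.63 and 1.83, and TUBA3 1.92 and 0.87. The interaction did not pass for any of the 3 (adjusted p 0.36, 0.5 and 0.28), which does not show that the materials act alike. GIF1 (Gbar_D11G027490) had -2.01 in PimaS-7 and -0.33 (SE 1.53) in 5917 (interaction adjusted p = 0.87). In 5917 this gene ranged over 0 to 26.2 CPM at 10 DPA and 0.163 to 45.2 CPM at 5 DPA. The size of its step there is therefore uncertain. ASK8 had 1.996 in PimaS-7 and 0.56 in 5917 (interaction adjusted p = 0.46). The pyrophosphatase, with 2.52 and 2.13, and SRF8, with -2.56 and -3.42, were called in both.

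**Figure D5:**
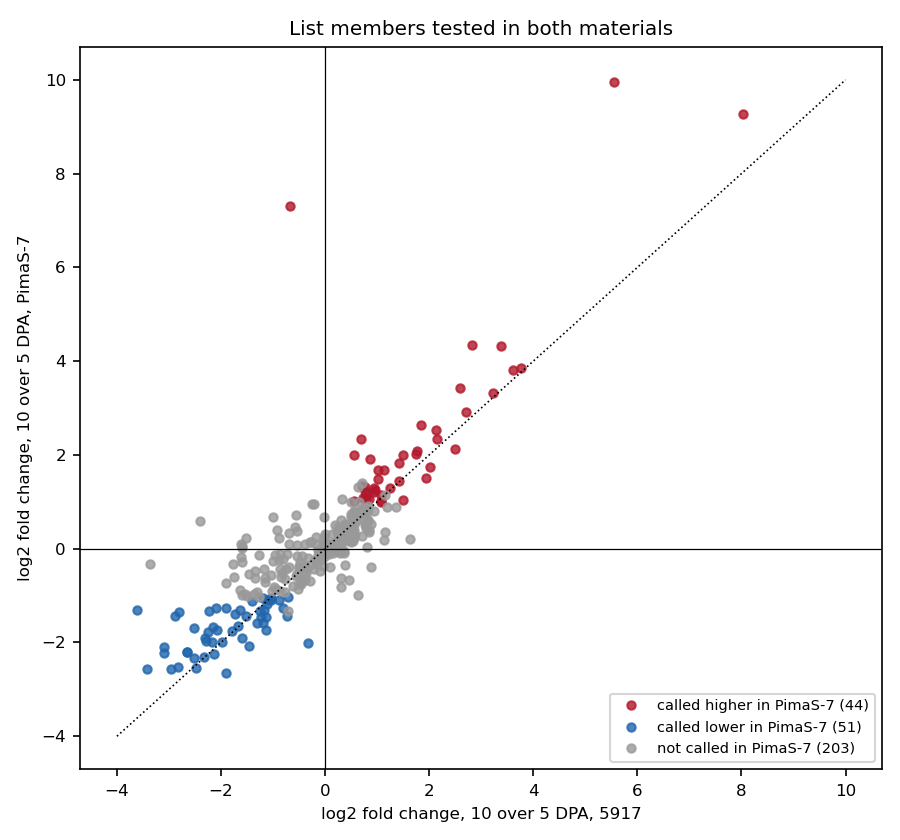
Log2 fold change of 10 over 5 DPA in PimaS-7 (vertical axis) and in 5917 (horizontal axis) for list members tested in both materials, 1 point per gene, colored by the call in PimaS-7; the dotted line marks equal change. The 51 genes lower in PimaS-7 all lie left of 0, and of the 44 higher ones 43 lie right of 0, PER57 being the exception. Over all genes tested in both materials the same sign was shared by 98.7% of those lower and 97.5% of those higher in PimaS-7.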

How the data were processed

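RNA of 48 *G. barbadense* ovule and fiber samples was sequenced (NEBNext Ultra kit). The deposited count table holds whole-number counts per gene that the authors obtained after mapping the reads with HISAT2 (version not given in the sources used here) to the Pima 3-79 HAU v2.0 genome. The study's methods name StringTie (version not given in the sources used here) for assembly and quantification. The deposited FPKM values are the authors' own, scaled to gene length and library totals and not to TMM, so folds read from FPKM differ from those of the fit. The step was tested with edgeR 4.0.16 in R 4.3.3 (quasi-likelihood test, TMM, filterByExpr with a count minimum of 10, Benjamini-Hochberg adjustment over all genes tested), fitted on the 6 libraries of the material, and the interaction on the 12 libraries of both materials. Calls needed an adjusted p of at most 0.05 with a log2 fold change of at least 1 in size. limma 3.58.1 on log2(FPKM + 1), DESeq2 1.42.0, other scalings, no filter, each library left out, a replicate block and a fit of all 48 libraries were tried as alternatives.

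Genes were named where the study's tables, held here in part, name them, and 1550 could be named. Lists and members were chosen with earlier results of these data known. Genes named in the text were called members of the lists (up to 4 per direction and those needed for a count), the 15 largest changes per direction among named genes with at least 5 CPM and groups that did not overlap, 5 candidate genes, the 10 named genes of highest CPM, and 2 unnamed genes per direction with at least 50 CPM. Uncalled members given beside them were chosen after their values were seen. The 2 genes flagged for a closer look were chosen by their interaction values. Where all libraries of a group were at 0, a bound replaced the fold, with 3 counts over the group as the limit, which covers counting error only. No column of another series was found, and figures were drawn with matplotlib 3.10.9.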

Additional observations from a re-analysis of the deposited data

Results flagged for a closer look

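The change between 10 and 5 DPA differed between PimaS-7 and 5917 for 44 of 51840 genes by edgeR's interaction test, a count that ranged over 18 to 79 with 1 library left out. The 2 genes below had the highest and the lowest interaction log2 fold change in a filtered part of these 44. The filter asked for at least 5 CPM in a group and at least 10 counts in each of the 12 libraries. Without the limit on counts the values reached 12.2 and -9.41. The gene Gbar_A10G013290 had 60.2, 46.1 and 53.4 CPM at 10 DPA, against 15.9, 26.6 and 20.8 CPM at 5 DPA, in PimaS-7. In 5917 it averaged 45.1 CPM at 10 DPA (26.3 to 67.3) and 116 CPM at 5 DPA (106 to 129), so that the signs were opposite (interaction log2 fold change 2.74, adjusted p = 0.0351). Gbar_D11G037340 had 3.41, 3.66 and 3.49 CPM at 10 DPA, against 7.88, 5.6 and 9.37 CPM at 5 DPA, in PimaS-7. In 5917 it averaged 9.4 CPM at 10 DPA (6.65 to 13.6) and 0.924 CPM at 5 DPA (0.754 to 1.01), again with opposite signs (interaction log2 fold change -4.41, adjusted p = 0.0031). Neither gene has a name in the tables held.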

How the results depend on the processing

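With library totals alone PimaS-7 had 2537 genes higher and 11424 lower, and 5917 had 1936 and 12599. limma on log2(FPKM + 0.1) gave 2464 and 10310 in PimaS-7, and 1766 and 11533 in 5917. limma on log2(FPKM + 1) called 6456 genes in PimaS-7, 1627 of them higher, and 6374 in 5917, 1071 of them higher. One fit of all 48 libraries left 2873 genes lower in PimaS-7 and 18 interaction genes, 9 higher and 9 lower, where DESeq2 gave 453, 318 higher and 135 lower. With each library left out in turn the calls ranged over 8072 to 11146 in PimaS-7 (3953 to 5615 higher, 4119 to 5531 lower), 8317 to 12669 in 5917 (3584 to 4772 higher, 4727 to 8005 lower) and 18 to 79 for the interaction (13 to 61 higher, 4 to 18 lower). The cause was not tested.

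Same-numbered libraries showed little shared deviation in PimaS-7 (correlations of -0.012, 0.084 and 0.088) or in 5917 (0.045, -0.021 and -0.113). With 3 libraries per group these values cannot exclude a shared origin, which the labels do not give. With the replicate block 4720 genes were higher and 5289 lower in PimaS-7, 4012 and 6093 in 5917, and 1 gene passed the interaction, 0 higher and 1 lower. Of 115 called genes followed one by one, 52 kept their call under every alternative that tested them, 63 lost it under at least 1, and 0 changed sign. ERF5 and PER57, among those that kept it, were tested in 12 of the 14 alternatives. The depth of 31726792 counts or more per library leaves genes under the count filter untested.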
